A study of Mus musculus with 8 samples.

Results

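The distal VHJ558 genes are the members of the IGHV1 gene family that lie farthest from the D segments in the mouse immunoglobulin heavy-chain locus. They were taken as every gene named IGHV1- whose interval on chromosome 12 (mm10) starts above a boundary set between IGHV1-48 (chr12:115038227-115038520) and IGHV1-49 (chr12:115055223-115055516). This gave 36 of the 159 heavy-chain variable (VH) genes with a read, and 36 of the 84 IGHV1 genes. The 36 genes spanned chr12:115055223-116000321 on the minus strand, so a higher coordinate is farther from the D segments. GENCODE M21 annotated 30 of them as V genes and 6 as V pseudogenes (IGHV1-60, IGHV1-62, IGHV1-70, IGHV1-73, IGHV1-79 and IGHV1-83). It annotated 41 IGHV1 genes above the boundary, of which 5 had no read (IGHV1-51, IGHV1-57, IGHV1-65, IGHV1-68 and IGHV1-86).

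Pro-B cells (B220+, Cd43+, IgM-, CD25-) had been sorted from the bone marrow of untreated mice aged 8 weeks, 4 of them controls and 4 lacking Setd2, the enzyme that trimethylates lysine on histone H3 over transcribed genes. Poly-A selected RNA was sequenced with single-end reads of 75 bases in 1 sequencing batch, and reads from the heavy-chain locus were collected with TRUST, a program that assembles immunoglobulin CDR3s from bulk RNA-seq. The sources used here name neither the Cre line or deletion behind the knockout nor the control genotype, and the reads of Setd2 itself and of pro-B cell markers outside the heavy-chain locus were not analysed here. No label names the animals, so the p-values below measure only the spread between these samples, which may in part be technical.

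In a pro-B cell a D segment is joined to a J segment, and a V segment is then joined to that DJ, which leaves 1 V segment joined to the DJ in each rearranged chain. The V segments lie over a long stretch of chromosome, and the locus is known to fold so that distal segments, most of them VHJ558, can reach the DJ. Which V segments are used sets the binding sites that the antibody repertoire can offer. Reads on a V gene in bulk RNA depend on how many cells carry that rearrangement and on how much RNA each cell makes, and these cannot be told apart here. The counts also do not separate reads of a rearranged V gene from any reads of an unrearranged one.

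Reads were counted over 1 interval per gene, of 282 to 457 bases (median 294), which overlaps the gene's V exon. In 7 genes (IGHV1-53, IGHV1-55, IGHV1-62-1, IGHV1-62-2, IGHV1-64, IGHV1-69 and IGHV1-74) the interval leaves out the last 8 to 42 bases of that exon, and in 10 it runs 127 to 130 bases past the exon's 5′ end. The genes are close relatives, and their sequences limit how reads can be told apart. Over the V exon, identity to the closest other VH gene ran from 82.1% (IGHV1-49) to 100%, with a median of 96.1%. Of the 36 genes, 11 shared no stretch of 75 bases, the length of a read, with any other VH gene. IGHV1-81, the member with the most reads in both groups, was 1 of these 11. Its V segment (294 bases, chr12:115920279-115920572, minus strand, mm10) is shown whole, from the GENCODE M21 transcripts, with its last 9 bases in capitals. These bases start at the cysteine codon that opens the CDR3, and 31 of the 36 genes ended in the same 9 bases.
IGHV1-81: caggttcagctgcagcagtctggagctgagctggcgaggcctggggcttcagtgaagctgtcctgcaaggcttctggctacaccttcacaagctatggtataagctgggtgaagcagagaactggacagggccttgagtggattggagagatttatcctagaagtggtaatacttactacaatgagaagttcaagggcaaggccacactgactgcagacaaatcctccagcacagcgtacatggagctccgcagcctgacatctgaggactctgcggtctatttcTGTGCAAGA

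In 4 genes more than 50% of the 75-base stretches also occurred in another VH gene: IGHV1-62-2 and IGHV1-71 (100% each), IGHV1-72 (84.8%) and IGHV1-62-3 (63.2%). IGHV1-62-2 and IGHV1-71 were identical over the 313 bases of their V exon. They also ended in 8 extra bases, in capitals below, that no other of the 159 VH genes had. IGHV1-74 and IGHV1-62-1 are shown beside them with the base in capitals at which their ends depart from the common 9 bases. The ends of IGHV1-62-2 (chr12:115446409-115446440), IGHV1-71 (chr12:115742205-115742236), IGHV1-74 (chr12:115802648-115802671) and IGHV1-62-1 (chr12:115386697-115386720) are on the minus strand.
IGHV1-62-2: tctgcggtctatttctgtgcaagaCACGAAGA
IGHV1-71: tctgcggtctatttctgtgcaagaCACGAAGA
IGHV1-74: tctgcggtctattactgtgcaaTa
IGHV1-62-1: actctgcaatctatctgtgcaagG

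IGHV1-62-3 and IGHV1-72 were 99.0% identical over the V exon. Counted from 1 at the 5′ end of the V segment, with the base of IGHV1-62-3 first, they differed within the segment by A64T and C285T. The first of these lies in codon 22, the codon of the first conserved cysteine of a V domain, which reads tgc in IGHV1-72 and agc in IGHV1-62-3. The stretch that holds both differences is shown for IGHV1-62-3 (chr12:115460999-115461239) and IGHV1-72 (chr12:115757984-115758224), with the differing bases in capitals.
IGHV1-62-3: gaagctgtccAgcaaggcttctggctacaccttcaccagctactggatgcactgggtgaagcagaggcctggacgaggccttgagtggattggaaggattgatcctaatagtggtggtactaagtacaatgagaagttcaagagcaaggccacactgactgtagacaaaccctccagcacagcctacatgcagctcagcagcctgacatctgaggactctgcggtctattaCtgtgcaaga
IGHV1-72: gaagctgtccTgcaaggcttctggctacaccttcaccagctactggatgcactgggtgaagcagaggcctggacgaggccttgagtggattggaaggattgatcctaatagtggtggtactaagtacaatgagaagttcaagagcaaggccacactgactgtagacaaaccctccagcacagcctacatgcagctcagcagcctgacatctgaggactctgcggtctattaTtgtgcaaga

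IGHV1-52 and IGHV1-61 were 98.7% identical and differed by C103G, A124G, T125G and G154T, with the base of IGHV1-52 first. The stretch with all 4 differences is shown in the same way for IGHV1-52 (chr12:115145617-115145688) and IGHV1-61 (chr12:115359270-115359341).
IGHV1-52: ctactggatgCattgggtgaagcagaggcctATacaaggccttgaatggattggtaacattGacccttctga
IGHV1-61: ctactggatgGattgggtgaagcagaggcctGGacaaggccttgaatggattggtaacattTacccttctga

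Depth differed between the samples. The controls held 35505 to 53071 VH reads and the knockouts 1637 to 56542. Knockout 3 stood apart: it had 1637 VH reads, 13.5% of its heavy-chain locus reads lay on V genes against 43.4% to 59.4% in the other samples, and 92.7% of its constant-region reads were IGHM. Results are therefore also given without it. Constant-region genes of switched B cells and plasma cells were read in every sample, although pro-B cells, as background, have not yet switched class. Of the 7 such genes looked for, 6 were listed and read in every sample, and IGHG2A had no value. Their summed share of constant-region reads was 51.0% to 57.6% in controls (53.5% ± 2.87, SD, n = 4) and 6.69% to 44.2% in knockouts (30.9% ± 17.0, SD, n = 4), with no overlap. IGHA was the most read of them in every sample, at 27.3% ± 7.36 in controls and 21.6% ± 12.7 in knockouts. Its groups overlapped, at 17.1% to 33.3% in controls and 4.02% to 34.1% in knockouts. IGHG1, IGHG2B, IGHG2C and IGHE were lower in knockouts without overlap. IGHG3 overlapped and had the higher mean in knockouts, 0.489% against 0.159% in controls. IGHM took 45.6% ± 2.92 in controls and 68.4% ± 17.0 in knockouts, and IGHD, read in mature B cells, 0.860% ± 0.153 and 0.644% ± 0.133. This difference between the groups moves with every comparison below, and its part in them was not tested.

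As a set, the distal VHJ558 genes took a similar mean share of VH reads in both groups, and the knockouts scattered far more. The share was 42.2%, 43.9%, 40.5% and 42.6% in controls 1 to 4 (42.3% ± 1.41, SD, n = 4). It was 30.8%, 50.7%, 40.8% and 42.4% in knockouts 1 to 4 (41.2% ± 8.18, SD, n = 4). Knockout 1 lay below and knockout 2 above all the controls, and the other two lay among them. The exact 95% binomial intervals (Clopper-Pearson) were 30.2% to 31.3% in knockout 1, 50.03% to 51.3% in knockout 2 and 38.4% to 43.2% in knockout 3, and they cover counting error only. The difference of the means, -1.17 percentage points, was smaller than the SD of the knockouts. It became 2.29 points without knockout 1, -4.35 without knockout 2, and -1.06 without knockout 3.

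The IGHV1 genes nearer the D segments, 48 of the same family, took 21.8% ± 0.890 of VH reads in the controls against 18.7% ± 1.56 in knockouts. The groups did not overlap (21.0% to 23.0% against 17.0% to 20.8%), but only narrowly. The shallow knockout 3, at 20.77%, lay just under control 4, at 20.95%, so counting error alone could close that gap. Without knockout 3 the share of the knockouts was 18.0% ± 0.860 (n = 3). The ratio of distal to nearer VHJ558 reads was 1.94, 1.91, 1.89 and 2.03 in controls 1 to 4. It was 1.81, 2.73, 1.96 and 2.30 in knockouts 1 to 4, so the groups overlapped. The log2 ratio of the groups' geometric means, knockout over control, was 0.16, ranging from 0.05 to 0.25 as each sample was left out. The proximal IGHV2 and IGHV5 families, which lie next to the D segments, took 12.6% ± 0.971 in controls and 23.1% ± 12.5 in knockouts, from 8.26% in knockout 2 to 34.6% in knockout 1. IGHV8, whose genes are interspersed with the distal VHJ558 genes, took 2.48% ± 0.570 in controls and 1.28% ± 0.981 in knockouts. Without knockout 3, at 2.69%, the IGHV8 share of the knockouts was 0.813% ± 0.356 (n = 3), below all controls. The stacked shares by sample show where the distal VHJ558 share of knockouts 1 and 2 departs from the rest.

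**Figure D1:**
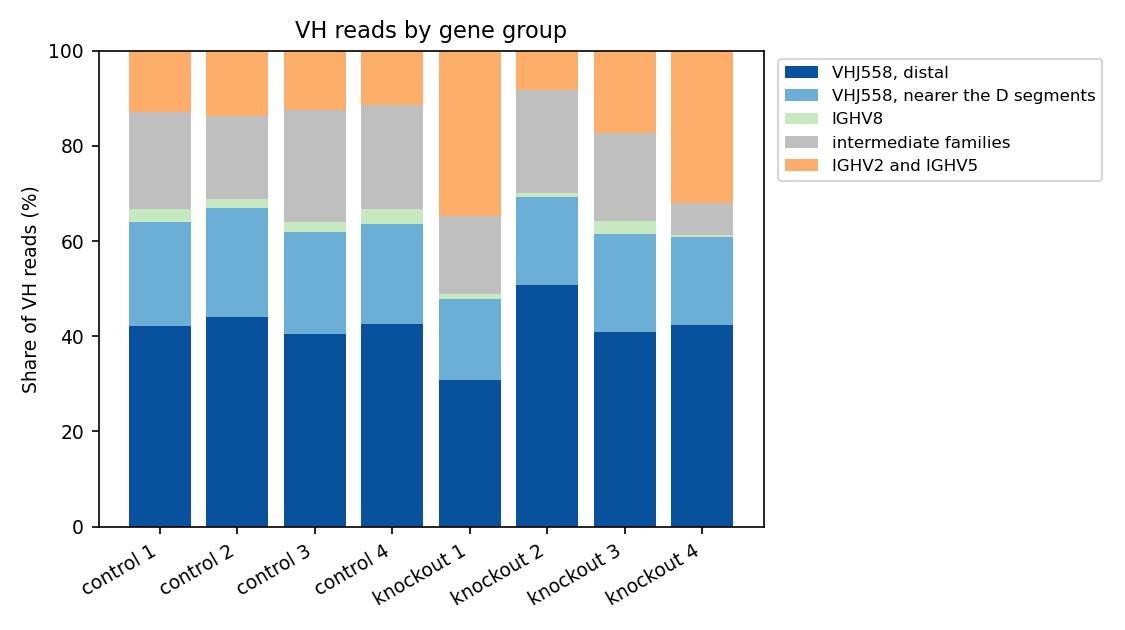
Share of VH reads (percent, y axis) in each of the 8 samples (x axis), stacked by gene group: distal VHJ558, VHJ558 nearer the D segments, IGHV8, intermediate families, and the proximal IGHV2 and IGHV5. The distal VHJ558 share lies between 40.5% and 43.9% in controls and between 30.8% and 50.7% in knockouts.

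Within the set, reads were spread less evenly in every knockout than in any control. The effective number of genes, the exponential of the Shannon entropy of the reads among the 36 genes, would be 36 if all had equal reads. It was 20.1, 23.5, 23.8 and 22.8 in controls 1 to 4 (22.6 ± 1.68, SD, n = 4). It was 12.5, 13.7, 18.0 and 5.68 in knockouts 1 to 4 (12.5 ± 5.10, SD, n = 4). The highest knockout, the shallow knockout 3, lay below the lowest control. With the reads of every sample thinned to the 668 of knockout 3 the means were 22.0 ± 1.65 and 12.3 ± 5.13, and without knockout 3 the knockout mean was 10.6 ± 4.32 (n = 3).

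Fewer genes carried most of the reads in the knockouts, and the leading gene differed among them. The 3 most read members took 28.3% ± 3.89 of the set's reads in controls and 53.4% ± 16.9 in knockouts (59.5% ± 14.4 without knockout 3), with no overlap (25.4% to 33.8% against 35.2% to 76.0%). The most read member was IGHV1-53 in knockout 1 (8.91% of VH reads), IGHV1-81 in knockout 2 (10.96%), IGHV1-52 in knockout 3 (6.35%) and IGHV1-81 in knockout 4 (23.9%). In controls it was IGHV1-81 in samples 1, 3 and 4 (7.13%, 3.56% and 6.53%) and IGHV1-55 in control 2 (4.27%). As a share of the set's reads, the most read member took 8.79% to 16.9% in controls and 15.6% to 56.3% in knockouts, so on this measure knockout 3 overlapped the controls.

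**Figure D2:**
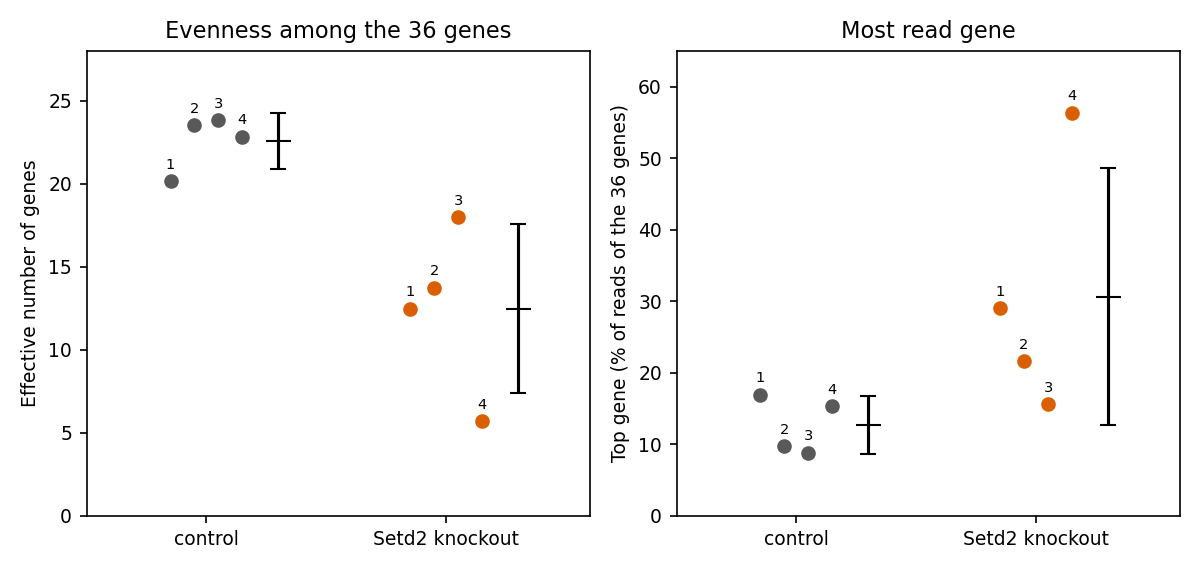
Left, effective number of genes among the 36 distal VHJ558 genes. Right, share of their reads on the most read gene (percent). Points are samples, numbered by replicate, and bars are the mean ± SD (n = 4). The knockouts lie between 5.68 and 18.0 effective genes and the controls between 20.1 and 23.8.

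The typical member was lower. The median over the 36 genes was 0.706%, 0.904%, 0.918% and 1.02% of VH reads in controls 1 to 4, against 0.247%, 0.512%, 0.550% and 0.126% in knockouts 1 to 4. Every knockout median lay below every control median. In knockout 1, 21 of the 36 genes were below every control and 3 above, where 49.1% and 11.3% of all 159 VH genes were. Knockout 2 had 18 below and 7 above (42.1% and 17.0% of all VH genes), and knockout 3 had 16 below and 8 above (37.7% and 15.7%). Knockout 4 had 27 below and 2 above (61.6% and 8.18%). As shares of the 36 genes, the counts below were 58.3%, 50%, 44.4% and 75%. These cannot be set directly against the shares of all 159 VH genes, because a gene with a control at 0 cannot fall below every control. Only 130 of the 159 genes had at least 10 reads over the samples, against 35 of the 36 members. Whether the members differ from other VH genes of like depth was not tested.

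The genes above every control differed from knockout to knockout. In knockout 1 they were IGHV1-53, IGHV1-77 and IGHV1-63, which summed to 10.55% of its VH reads. In knockout 2 they were IGHV1-81, IGHV1-72, IGHV1-62-3, IGHV1-74, IGHV1-78, IGHV1-58 and the pseudogene IGHV1-79, at 34.2% together. In knockout 3 they were IGHV1-52, IGHV1-53, IGHV1-72, IGHV1-59, IGHV1-61, IGHV1-62-3, IGHV1-58 and IGHV1-77, at 24.3%. In knockout 4 they were IGHV1-81 and IGHV1-64, at 30.2%. None of the 36 genes exceeded every control in all 4 knockouts, and none of the 130 tested VH genes did (0.0%). Both genes of the near-identical pair IGHV1-62-3 and IGHV1-72 stand in the lists of knockouts 2 and 3. Both of IGHV1-52 and IGHV1-61 stand in that of knockout 3. The genes of such a pair may not be separate cases.

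**Figure D3:**
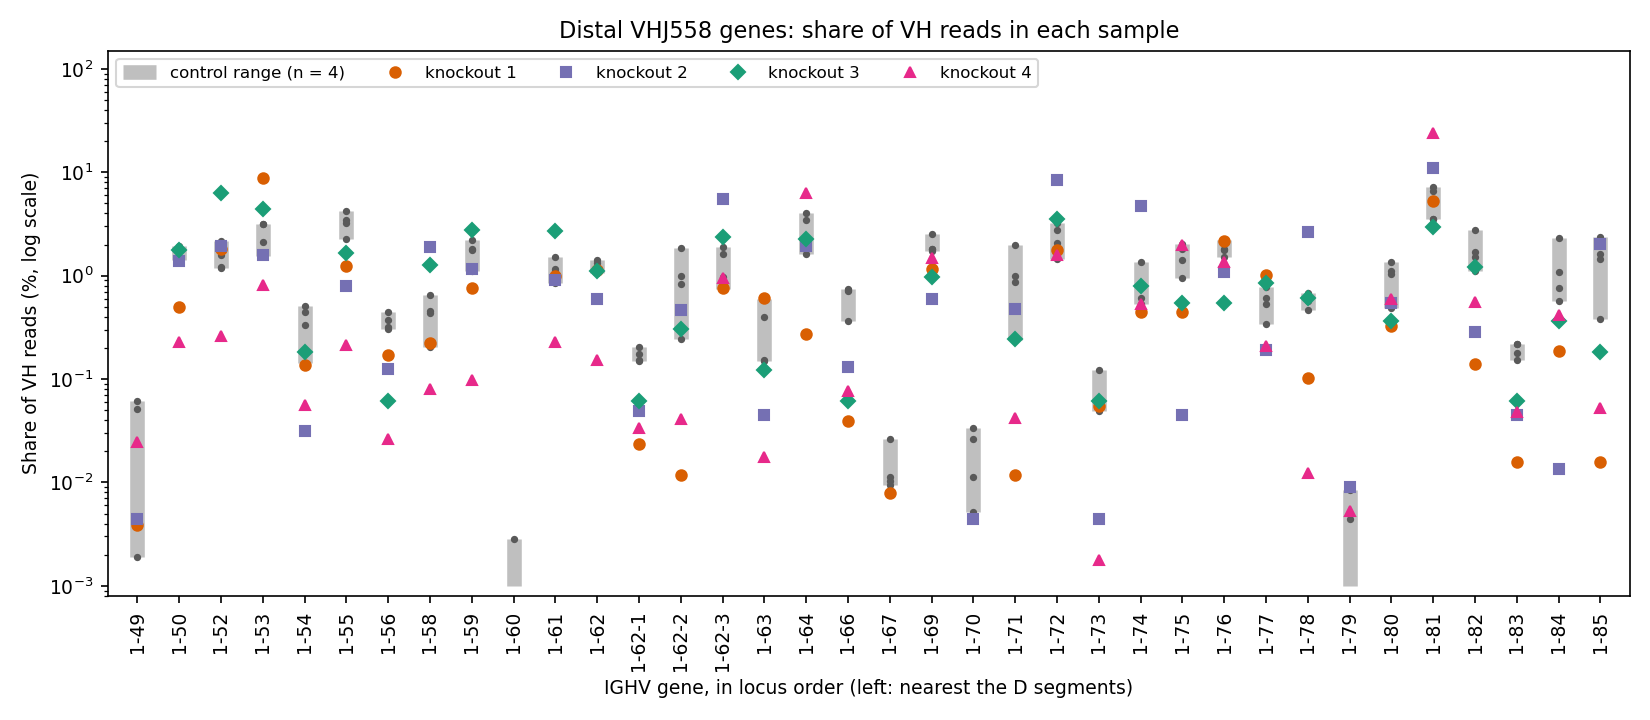
Share of VH reads (percent, log axis) of each of the 36 distal VHJ558 genes, in locus order with the gene nearest the D segments on the left. Grey bars and dots are the range and values of the 4 controls, coloured symbols the 4 knockouts; samples at 0 have no symbol, and a bar that reaches the axis floor includes a control at 0. IGHV1-66, IGHV1-62-1 and IGHV1-83 have all 4 knockouts below the grey bar.

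No distal VHJ558 gene passed the test for a difference between the groups. With edgeR's quasi-likelihood test and Benjamini-Hochberg adjustment over the 130 VH genes with at least 10 reads, 0 of 35 tested members and 0 of the 130 VH genes (0.0%) had an adjusted p under 0.05. IGHV1-60, with 1 read in all, was not tested. In simulated reads at the depths of these samples, the test called 18% of 4-fold changes and 77% of 16-fold changes. A gene that was not called may therefore still differ. At an unadjusted p under 0.05, 11 members were lower and 0 higher, where 26.2% of all tested VH genes were lower and 1.54% higher. The groups did not overlap for 9 members, all lower in knockouts, against 24.6% of all tested VH genes, and for no member higher (0.0% of all). Without knockout 3 there were 12 such members, against 33.1% of all. DESeq2, on the same reads with its own scaling, called 6 of the 130 VH genes (4.62%), among them 1 member, IGHV1-81. With all heavy-chain locus reads as library size, edgeR called 26 of the 130 (20.0%), among them 8 members, all lower in knockouts.

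The direction of the fitted changes depended on the scaling. With the VH total as library size, 25 of the 35 members had a fitted log2 fold change below 0, against 74.6% of all tested VH genes. The median was -0.90 for the members, -0.82 for all tested VH genes and -1.11 for the nearer VHJ558 genes. With edgeR's TMM scaling, which centres on the bulk of genes, the medians were 0.20 for the members and 0.18 for all, and 1 member was lower and 5 higher at an unadjusted p under 0.05 (8.46% and 10.8% of all). Choosing TMM thus moved the median of all VH genes from -0.82 to 0.18. The changes below are in share of VH reads, under the first scaling, unless TMM is named.

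**Figure D4:**
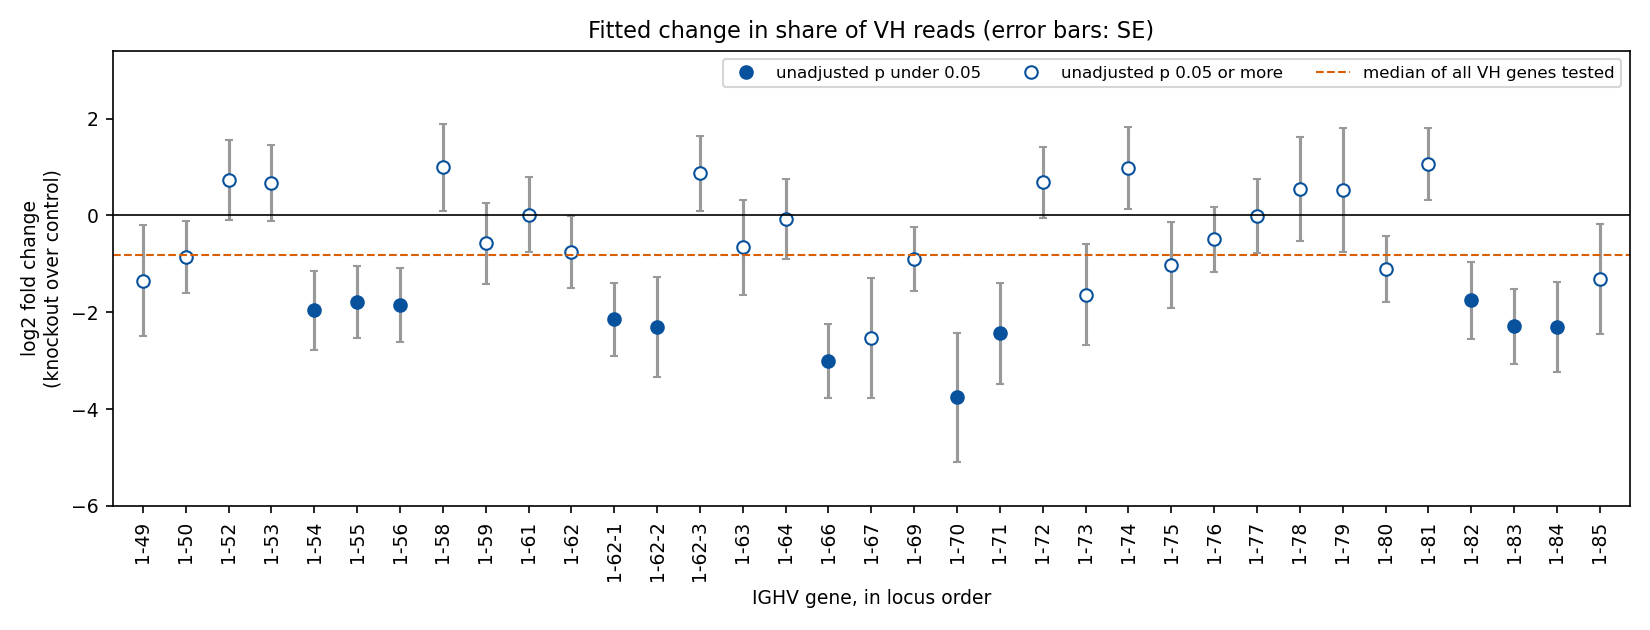
Fitted log2 fold change in share of VH reads, knockout over control, of the 35 tested members in locus order (edgeR, error bars are the standard error). Filled points have an unadjusted p under 0.05, and the dashed line is the median of all 130 tested VH genes, -0.82. The 11 filled points all lie below 0, and none passed the threshold after adjustment.

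The 3 members with the lowest p, IGHV1-66, IGHV1-83 and IGHV1-62-1, were below the controls in all 4 knockouts. IGHV1-66 (chr12:115593110-115593403) took 0.364%, 0.707%, 0.744% and 0.725% of VH reads in controls 1 to 4, against 0.0392%, 0.130%, 0.0611% and 0.0760% in knockouts 1 to 4. The groups did not overlap, and the highest knockout was below the lowest control by more than the SD of the knockouts (0.0385). Its log2 fold change was -3.01 (SE 0.76, edgeR adjusted p = 0.0514), and -1.77 with TMM scaling. Over the alternative fits its adjusted p ran from 0.0222 to 0.240.

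The pseudogene IGHV1-83 (chr12:115963817-115964109) was at 0.218%, 0.153%, 0.180% and 0.217% in controls 1 to 4 and at 0.0157%, 0.0447%, 0.0611% and 0.0478% in knockouts 1 to 4. IGHV1-62-1 was at 0.149%, 0.153%, 0.175% and 0.203% in controls 1 to 4 and at 0.0235%, 0.0492%, 0.0611% and 0.0336% in knockouts 1 to 4. Both genes were weakly read, and both had all knockouts under all controls. The log2 fold changes were -2.29 (SE 0.77, edgeR adjusted p = 0.0831) for IGHV1-83 and -2.15 (SE 0.75, adjusted p = 0.0985) for IGHV1-62-1. In knockout 3 each of these values, and that of IGHV1-66, rests on 1 read.

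IGHV1-55 (chr12:115208137-115208527) was, in controls, the most read of the low genes. It took 2.25%, 4.27%, 3.48% and 3.24% of VH reads in controls 1 to 4, against 1.24%, 0.791%, 1.65% and 0.216% in knockouts 1 to 4, without overlap. Its log2 fold change was -1.79 (SE 0.75, edgeR adjusted p = 0.141). Per 100 bases of its interval it ranked 2 among the 36 members in controls (0.846% of VH reads per 100 bases) and 16 in knockouts (0.249%). Its neighbour IGHV1-56 took 0.307% to 0.445% in controls and 0.0265% to 0.172% in knockouts, also without overlap (log2 fold change -1.85, SE 0.77, edgeR adjusted p = 0.141). In knockout 3 the value of IGHV1-56 rests on 1 read. IGHV1-54, on the other side of IGHV1-55, took 0.143% to 0.506% and 0.0313% to 0.183%, and there the groups overlapped (log2 fold change -1.96, SE 0.82, edgeR adjusted p = 0.141).

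At the far end of the locus, IGHV1-84 (chr12:115980702-115981134) took 0.761%, 0.575%, 1.09% and 2.34% of VH reads in controls 1 to 4, against 0.188%, 0.0134%, 0.367% and 0.417% in knockouts 1 to 4. The groups did not overlap, and control 4 stood above the other controls (log2 fold change -2.32, SE 0.93, edgeR adjusted p = 0.141). The values of knockouts 2 and 3 rest on 3 and 6 reads. IGHV1-82 took 1.12% to 2.79% in controls and 0.141% to 1.22% in knockouts, where only knockout 3 reached the control range (log2 fold change -1.75, SE 0.80, edgeR adjusted p = 0.159). IGHV1-85 (chr12:116000028-116000321), the gene farthest from the D segments, took 1.43%, 2.36%, 0.380% and 1.63% in controls 1 to 4, against 0.0157%, 2.05%, 0.183% and 0.0531% in knockouts 1 to 4. Knockout 2 was at the level of the controls and the other 3 below all of them. Its log2 fold change was -1.31 (SE 1.14, edgeR adjusted p = 0.486), and without knockout 2 it was -4.61 (adjusted p = 0.0304, in a range of 0.0304 to 0.786 over the alternative fits).

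IGHV1-62-2 and IGHV1-71, identical over their V exon, had nearly equal reads in every sample, and their separate values are 1 measurement. In controls 1 to 4 IGHV1-62-2 had 95, 986, 354 and 372 reads and IGHV1-71 had 94, 1052, 353 and 392. In knockouts 1 to 4 they had 3, 105, 5 and 23 reads and 3, 106, 4 and 24 reads. Together they took 0.484%, 3.84%, 1.99% and 1.69% of VH reads in controls 1 to 4, against 0.0235%, 0.943%, 0.550% and 0.0831% in knockouts 1 to 4. Control 1 lay among the knockouts, so the groups overlapped. The fitted log2 fold changes were -2.31 (SE 1.04, edgeR adjusted p = 0.159) and -2.44 (SE 1.04, adjusted p = 0.146).

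The other near-identical pairs did not split their reads evenly. The ratio of IGHV1-62-3 to IGHV1-72 reads was 0.468 to 0.589 in controls and 0.429 to 0.672 in knockouts. The ratio of IGHV1-52 to IGHV1-61 reads was 1.03 to 1.43 in controls and 1.15 to 2.36 in knockouts. How the deposited counts assign a read that matches both genes of a pair is not stated in the labels or the files, so levels of single genes in these pairs are uncertain.

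**Figure D5:**
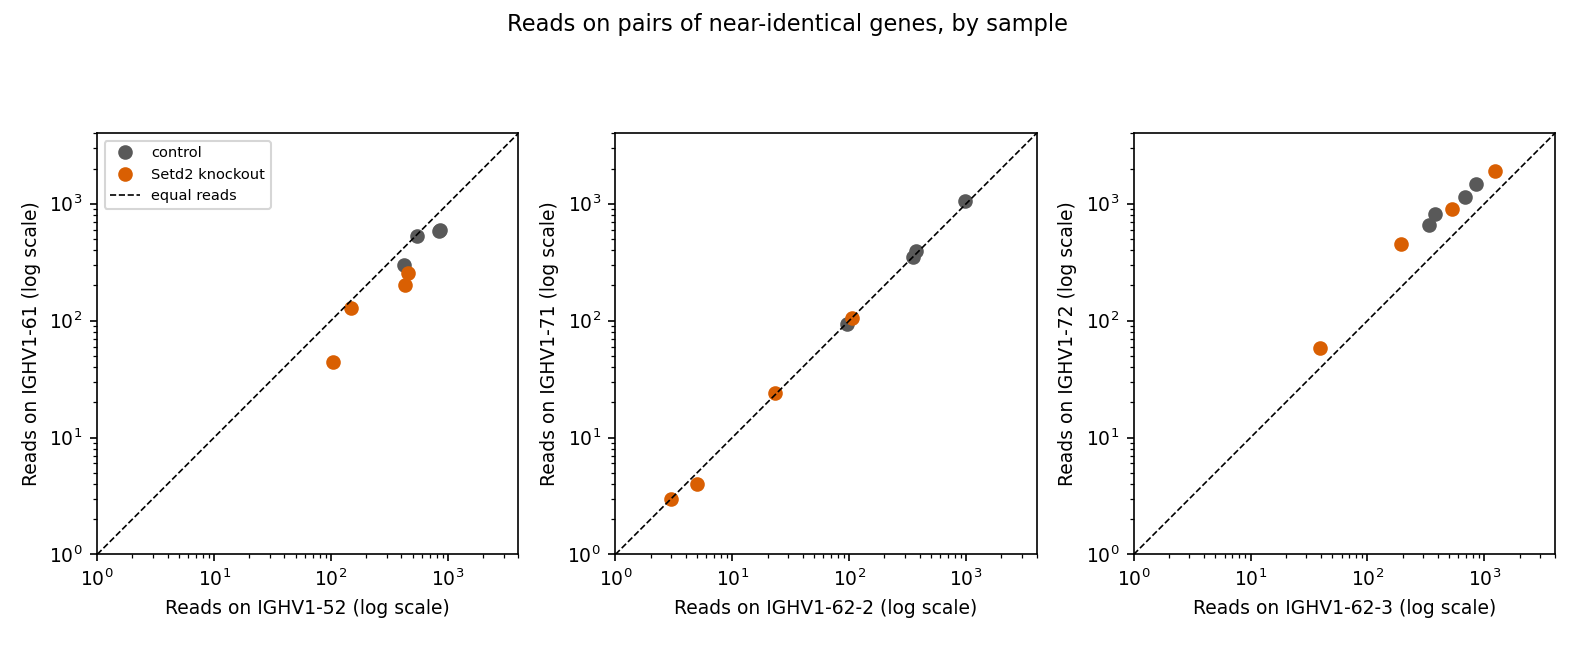
Reads per sample on the 2 genes of each near-identical pair (both axes logarithmic, counts of reads); grey points are controls, orange points knockouts, and the dashed line marks equal reads. The points of IGHV1-62-2 and IGHV1-71 follow the line, those of IGHV1-62-3 and IGHV1-72 lie above it, and those of IGHV1-52 and IGHV1-61 on or below it.

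Of the 36 genes, 11 had a higher mean in knockouts, and none of them passed the test. IGHV1-81 took 7.13%, 3.56%, 3.56% and 6.53% of VH reads in controls 1 to 4, against 5.32%, 10.96%, 2.93% and 23.9% in knockouts 1 to 4. Knockouts 2 and 4 lay above all controls, knockout 1 among them and knockout 3 below them. The log2 fold change was 1.05 (SE 0.75, edgeR adjusted p = 0.383), and 0.31 without knockout 4. DESeq2 gave 2.66 (adjusted p = 0.0497), and edgeR with TMM scaling 2.70 (adjusted p = 0.242), in a range of 0.0497 to 0.735 over the alternative fits. Per 100 bases it was the most read member in both groups, at 1.77% of VH reads in the controls against 3.66% in knockouts.

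IGHV1-72 took 2.09%, 2.78%, 3.24% and 1.45% in controls 1 to 4, against 1.75%, 8.44%, 3.54% and 1.58% in knockouts 1 to 4. IGHV1-53 took 3.14%, 1.56%, 3.13% and 2.10% in controls 1 to 4, against 8.91%, 1.596%, 4.46% and 0.812% in knockouts 1 to 4. IGHV1-52 took 2.19%, 1.58%, 1.18% and 1.21% in controls 1 to 4, against 1.80%, 1.94%, 6.35% and 0.262% in knockouts 1 to 4. For each of these 3 genes 1 knockout stood far above the rest, and it was a different knockout each time. Their log2 fold changes were 0.68 for IGHV1-72, 0.67 for IGHV1-53 and 0.73 for IGHV1-52 (edgeR adjusted p = 0.559, 0.608 and 0.591). Without its highest knockout, the value was -0.0708 for IGHV1-72, -0.14 for IGHV1-53 and -0.21 for IGHV1-52.

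IGHV1-64 took 4.002%, 3.48%, 1.62% and 2.27% in controls 1 to 4, against 0.270%, 1.94%, 2.26% and 6.35% in knockouts 1 to 4, from below to above all controls (log2 fold change -0.07, edgeR adjusted p = 0.978). IGHV1-76 took 1.503% to 2.24% in controls and 0.550% to 2.17% in knockouts, and its groups overlapped (log2 fold change -0.50, edgeR adjusted p = 0.689). IGHV1-69 took 1.74% to 2.54% in controls and 0.599% to 1.49% in knockouts, without overlap (log2 fold change -0.90, edgeR adjusted p = 0.383), but with TMM scaling the value was 0.46. IGHV1-69 thus lay lower as a share of VH reads in all 4 knockouts, while its change was near the median of all VH genes.

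At the weak end, IGHV1-67 and the pseudogene IGHV1-70 had shares under 0.035% in every sample, and knockouts 3 and 4 had no read on either. IGHV1-67 was at 0.00942% to 0.0265% in controls and at 0.00783% in knockout 1, and IGHV1-70 at 0.00512% to 0.0338% in controls and at 0.00447% in knockout 2. A count of 0 allows up to 3 reads, which in knockout 3 is a share of up to 0.183%, above all these values. Their places among the 9 members without overlap therefore rest on counts of 0. Of the 6 pseudogenes, IGHV1-62 had the most reads, at 1.25% ± 0.155 of VH reads in the controls against 0.746% ± 0.467 in knockouts, where knockouts 1 and 3 (1.14% and 1.10%) lay among the controls. The 6 pseudogenes together took 1.54% ± 0.155 and 0.824% ± 0.489 (SD, n = 4 each), without overlap.

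Of the genes on either side of the boundary, IGHV1-50 had the most reads, and IGHV1-48 and IGHV1-49 were weak. IGHV1-49, the first gene inside, took 0.00188% to 0.0620% in controls and 0% to 0.0248% in knockouts. IGHV1-50, next to it, took 1.42% to 1.93% in controls and 0.493%, 1.40%, 1.77% and 0.230% in knockouts 1 to 4 (log2 fold change -0.86, edgeR adjusted p = 0.486). Just outside, IGHV1-48 had 1 read in knockout 4 and none elsewhere. IGHV1-47 took 0.138% to 0.626% in controls and 0%, 0.0313%, 0% and 0.00354% in knockouts 1 to 4, without overlap. Its log2 fold change was -4.89 (SE 1.15, edgeR adjusted p = 0.0514), and -3.87 with TMM scaling. A large drop thus also lay just outside the distal set.

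The distal stretch was also divided by position. In sets of 9 genes from the D-side end outwards, the mean shares of VH reads were 11.98%, 8.68%, 9.71% and 11.97% in controls and 10.7%, 7.58%, 8.77% and 14.1% in knockouts. Each set's difference was smaller than the SD of its knockouts (7.13, 2.60, 4.39 and 9.09 percentage points). Single knockouts departed in opposite ways. The first 9 genes, IGHV1-49 to IGHV1-59, took 18.5% in knockout 3 and 1.81% in knockout 4, and the last 9, IGHV1-77 to IGHV1-85, took 6.60% and 25.8%.

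The assembled CDR3 sequences count clonotypes rather than reads. A clonotype here is a distinct complete CDR3 nucleotide sequence, and TRUST lists every V gene that fits its short V end, a median of 11 to 24 genes per clonotype. Clonotypes that listed only distal VHJ558 genes numbered 24 of 780, 28 of 740, 15 of 638 and 25 of 760 in controls 1 to 4 (3.13% ± 0.595, SD, n = 4). They numbered 6 of 179, 7 of 231, 0 of 66 and 18 of 207 in knockouts 1 to 4 (3.77% ± 3.61, SD, n = 4). The exact 95% interval of the 0 of 66 in knockout 3 reaches up to 5.44%, so the depth there could not show a difference. Knockout 4 (8.70%, exact 95% interval 5.24% to 13.4%) lay above the controls, and the difference of the means, 0.64 percentage points, was -0.998 without knockout 4 and 1.90 without knockout 3.

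IGHV1-81 was the only V gene listed for 9, 7, 0 and 10 clonotypes in controls 1 to 4 and for 1, 2, 0 and 9 in knockouts 1 to 4. CDR3s that begin with the common 9 bases and the first 5 of the 8 extra bases of IGHV1-62-2 and IGHV1-71 numbered 2, 7, 4 and 1 in controls and 0, 2, 1 and 1 in knockouts. These counts are too small to compare between the groups.

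Knockout 4 also held a large group of near-identical CDR3s, some listing IGHV1-81, looked for after its read share was seen. The 6 CDR3s of 48 bases within 3 mismatches of its largest IGHV1-81 clonotype held 302 of its 1227 CDR3 reads (24.6%). The 2 of them that listed IGHV1-81 alone had 62 and 29 reads, and the largest of the 6, with 203 reads, listed no V gene. Both are shown with the differing bases in capitals (G4C and G15A, counted from 1 at the 5′ end of the CDR3, with the first sequence's base first). Both were joined to IGHJ3 and assigned to IGHA.
CDR3 with 62 reads: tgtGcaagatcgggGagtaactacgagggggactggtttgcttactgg
CDR3 with 29 reads: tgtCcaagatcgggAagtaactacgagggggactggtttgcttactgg

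Groups of CDR3s chained by up to 3 mismatches were built in the same way in all samples. The largest such group held 7.41%, 6.78%, 7.5% and 24.6% of CDR3 reads in knockouts 1 to 4 and 3.10%, 2.41%, 2.51% and 2.19% in controls 1 to 4. It held a CDR3 listing IGHV1-81 alone in knockouts 2 and 4 and controls 2 and 4. In knockout 1 and control 3 the shortest V gene list within it held only IGHV5 and only IGHV9 genes, respectively. In control 1 that list held IGHV1S41 alone, and in knockout 3 it held 30 genes, distal VHJ558 genes among them. No distal VHJ558 gene could be singled out for the largest group in these 4 samples, so their values cannot be assigned to the distal genes. In knockout 1 the second largest group, with 5.50% of CDR3 reads, held a CDR3 listing IGHV1-81 alone. In control 1 the shortest list of the second largest group, with 1.43%, held only IGHV1-70 and IGHV1-84. In knockout 3 and control 3 that list was not limited to distal genes. The largest group of knockout 3 was 1 clonotype of 9 reads among 120. Chains can join CDR3s of different J segments, as in knockout 2 and in controls 1, 2 and 4. Clonotypes listing only distal VHJ558 genes numbered 92 in controls and 31 in knockouts. Of these, 14 and 5 had a constant gene assigned, the 5 all in knockout 4, and in each case it was IGHA. This assignment is uneven, since 685 of the 717 complete clonotypes with a constant gene listed IGHA and only 1 listed IGHM, although IGHM took 41.4% to 92.7% of constant-region reads. Whether the reads of IGHV1-81 in knockout 4 come from pro-B cells or from switched cells was not tested.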

How the data were processed

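Heavy-chain reads of 4 control and 4 Setd2 knockout samples were analysed, 1 table of gene reads and 1 table of assembled CDR3s per sample. The submitters' processing notes name STAR 2.5.1 and mm10, and the series' design text names TRUST; versions and settings of TRUST are not given in the sources used here. The deposited counts are raw reads per segment interval, and the deposited contig tables give reads per contig as counts and a clonal score, which, multiplied by the CDR3 length (at least 48 bases), gave whole reads. Strand was not stated.

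Shares are reads of a gene over all IGHV reads of the sample. Differences were tested with edgeR 4.0.16 (quasi-likelihood test, VH total as library size, genes with at least 10 reads over the 8 samples, Benjamini-Hochberg over 130 VH genes, threshold 0.05); DESeq2 1.42.0 was an alternative, and the code was tested on simulated data. Scores over the 36 genes got no p-value. Genes named singly were the 12 members with the lowest p, the 8 most read in controls, the most read member of each knockout, 2 genes on each side of the boundary and the member of highest start; any other gene named was picked with its values in view. The members and gene lists were chosen with earlier results of these data known. Sequences and annotation are from GENCODE M21, whose V exons overlap the intervals with the differences at the ends given above. The interval of IGHV1-59 also runs 25 bases past the exon's 3′ end. VH reads per sample ranged from 1637 to 56542. Light-chain tables were not used. Alternatives were other scaling, library size, filters, boundaries and left-out samples.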

Additional observations from a re-analysis of the deposited data

Results flagged for a closer look

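Among 56 groups of 4 values (the named genes and set measures, in each group), 8 had 1 sample far from the others by Dixon's criterion, which chance meets in about 1 in 20 groups. Control 1 was low for IGHV1-66, at 0.364% of VH reads against 0.707% to 0.744% in the other controls, and high for IGHV1-69, at 2.54% against 1.74% to 1.83%. Knockout 2 was high for IGHV1-85, at 2.05% against 0.0157% to 0.183% in the other knockouts. The remaining 5 concern values that rest on few reads. In 3 of them the other samples of the group had no read, so that any read stands apart and the rate of 1 in 20 does not apply. Control 4 was high for IGHV1-67 at 0.0265%, knockout 1 for IGHV1-67 at 0.00783%, and knockout 2 for IGHV1-70 at 0.00447%. Just outside the boundary, knockout 2 was high for IGHV1-47 at 0.0313% and knockout 4 for IGHV1-48 at 0.00177%.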

How the results depend on the processing

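Against 0 VH genes and 0 distal VHJ558 genes called, DESeq2 called 6 and 1, locus reads as library size 26 and 8 (IGHV1-54, IGHV1-55, IGHV1-62-1, IGHV1-66, IGHV1-70, IGHV1-82, IGHV1-83 and IGHV1-84, all lower), no filter 6 and 1, and at least 10 reads in each of 4 samples 4 and 1. Summing the near-identical pairs, an alternative chosen after seeing the data, called 4 and 1. The single member was IGHV1-66 in the last 3 and IGHV1-81 with DESeq2. Leaving out samples gave 0 to 5 VH genes and 0 to 2 members; knockout 2 left out gave 4 and 2 (IGHV1-66 and IGHV1-85), control 4 left out 5 and 0. At an unadjusted p under 0.05, TMM gave 1 lower and 5 higher of 35 members, against 11 and 14 of all 130 VH genes. DESeq2 gave 1 lower and 7 higher members, against 13 and 17 of the 130. Without a sample, 6 to 10 of 34 or 35 members were lower, against 24 to 37 of 125 to 130 VH genes. Members numbered 6 without control 2 or 3, and 7 without control 4 or knockout 4. With replicate number as a block, 15 VH genes and 4 members (IGHV1-62-2, IGHV1-66, IGHV1-71 and IGHV1-84) were called. Whether equal numbers pair the samples could not be decided. Deviations of same-numbered samples correlated at -0.05 to 0.10 and those of other control and knockout samples at -0.15 to 0.09, and correlations this weak cannot settle it.

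Of the 25 members fitted below 0, 9 were above 0 with TMM and 10 with DESeq2. Among the genes named by rule these were IGHV1-49 (0.32 and 0.21), IGHV1-64 (1.58 and 1.53), IGHV1-69 (0.46 and 0.47) and IGHV1-76 (0.78 and 0.81). With locus reads as library size IGHV1-52, above 0 in the main comparison, was at -0.17. Leaving out single samples gave IGHV1-52 -0.21 to 1.11, IGHV1-53 -0.137 to 1.009, IGHV1-64 -0.96 to 0.31 and IGHV1-72 -0.0708 to 0.94. The cause was not tested. The difference in share of the set stayed within the spread of the knockouts, at 2.95 points without each sample's most read gene and -5.23 per locus reads. The effective number was lower in knockouts in all settings tried; leaving out single samples gave differences of -11.95 to -7.85. Among clonotypes with a single V gene, the difference was 4.79 points, against 0.64. Depth limits weak genes in knockout 3, where 1 read is 0.0611% of VH reads.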
